A study of Mus musculus with 2 samples.

Results

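The 8 genes described here encode molecules by which dendritic cells restrain T cell responses: Aldh1a2, Il4i1, Ido1, Itgb8, Tgfb1, Pdcd1lg2, Cd274 and Cd200. They were chosen for their known function, with earlier results of these data known. Matched by symbol, all 8 were found among the 32285 genes of the count matrix. Cells were sorted from the lungs of zbtb46-cre x rosa26-yfp mice as live CD45.2+ YFP+ cells, at 7 days of age (neonatal) or 8 weeks of age (adult), with 2 independently prepared pools per age and at least 5 mice in each pool. All mice carried both transgenes, so YFP marked cells that had expressed Zbtb46 or descended from such cells, whether or not they still expressed it. The 2 pools of an age carried different hashtag antibodies and were combined before droplet loading, so age and loading cannot be told apart. Xist transcripts without Y-linked ones were found in 76.5% and 64.2% of cells of neonatal pools 1 and 2 and in 0% of cells of both adult pools, so age and sex cannot be told apart either.

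Retinal dehydrogenase 2, the product of Aldh1a2, makes retinoic acid, which dendritic cells use to favour regulatory T cells and mucosal homing. Il4i1 encodes a secreted amino acid oxidase and Ido1 the tryptophan-degrading indoleamine dioxygenase, and both produce ligands of the aryl hydrocarbon receptor. Tgfb1 encodes the latent cytokine TGF-beta 1, and Itgb8 the beta chain of the integrin alpha v beta 8, which dendritic cells use to release active TGF-beta. Cd274 and Pdcd1lg2 encode PD-L1 and PD-L2, the ligands of the inhibitory receptor PD-1. Cd200 encodes a surface glycoprotein that signals to myeloid cells through the receptor encoded by Cd200r1. Migratory lung dendritic cells that have matured (Ccr7+ Fscn1+) are known to switch on several of these genes together, including those of both PD-1 ligands.

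In the GRCm38 assembly with GENCODE M21 annotation, all 8 are protein-coding genes. Aldh1a2 lies on chromosome 9 (71215789 to 71296243), Il4i1 on chromosome 7 (44816387 to 44840809), Ido1 on chromosome 8 (24584136 to 24597009), Itgb8 on chromosome 12 (119158022 to 119238802) and Tgfb1 on chromosome 7 (25687002 to 25705077). Cd200 lies on chromosome 16 (45382135 to 45409053). Cd274 (29367455 to 29388095) and Pdcd1lg2 (29410919 to 29471161) are neighbours on chromosome 19, 22823 bases apart on the same strand. RefSeq start sites for GRCm38.p6 gave the 250 bases before the start for 7 of the 8 genes, all but Ido1. The RefSeq starts of Il4i1 and Itgb8 lie inside the longer GENCODE genes, 1 and 494 bases from the nearest GENCODE transcript start. Transcript counts do not read promoters. The windows of 3 genes are shown because all 3 were high in mature dendritic cells, and because the neighbouring PD-1 ligand genes differed in the other cell classes. Capitals mark a match to the NF-kB consensus on either strand.

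Il4i1, chr7:44836038-44836287, plus strand: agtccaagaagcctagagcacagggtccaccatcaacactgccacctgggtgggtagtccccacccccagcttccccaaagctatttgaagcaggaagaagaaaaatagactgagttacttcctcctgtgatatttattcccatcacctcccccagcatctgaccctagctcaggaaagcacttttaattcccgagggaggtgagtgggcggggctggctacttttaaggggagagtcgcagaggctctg

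Pdcd1lg2, chr19:29410669-29410918, plus strand: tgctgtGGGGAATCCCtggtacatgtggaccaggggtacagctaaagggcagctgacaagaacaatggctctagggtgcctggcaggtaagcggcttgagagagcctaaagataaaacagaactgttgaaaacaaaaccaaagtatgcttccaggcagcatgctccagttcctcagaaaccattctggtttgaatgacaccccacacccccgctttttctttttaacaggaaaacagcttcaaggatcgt

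Cd274, chr19:29367188-29367437, plus strand: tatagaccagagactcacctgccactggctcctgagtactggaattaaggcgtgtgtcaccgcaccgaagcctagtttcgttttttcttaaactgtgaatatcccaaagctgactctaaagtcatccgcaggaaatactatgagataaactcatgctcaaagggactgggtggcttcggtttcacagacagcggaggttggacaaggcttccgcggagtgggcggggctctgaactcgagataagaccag

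Pdcd1lg2 held 1 match to the NF-kB consensus, GGGGAATCCC, between 244 and 235 bases before its start, and the other 6 windows held none. Of all 32851 RefSeq windows of this length, 3.90% held a match. AP-1 (TGANTCA, in 6.75% of all windows), the interferon-stimulated response element (2.98%) and STAT (TTCNNNGAA, 7.02%) had no match in the 7 windows. These matches describe letters in a window and were not linked to any measurement of binding.

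After filtering, 12740 cells remained, 4412 and 4444 from neonatal pools 1 and 2 and 2030 and 1854 from adult pools 1 and 2. Median depth per cell was 3721.5, 3559.5, 3165 and 3052 unique transcripts (UMIs), in that order. Of the sorted cells, 4317 of 12740 cells (33.9%) fell into the 3 classes with dendritic markers: 2100 cDC1-like, 949 cDC2-like and 1268 mature dendritic cells (mature DC), the last defined by Ccr7, Fscn1 and Cacnb3. The rest were mostly nonclassical monocytes (3503), neutrophils (2041) and classical monocytes (1226). Zbtb46 itself was at 65.9 to 76.0 CPM (UMI counts scaled to the same total in every sum) in cDC1, 42.6 to 48.4 CPM in cDC2 and 77.7 to 99.9 CPM in mature DC, and at most 5.86 CPM in monocytes of either class. The 8 genes were left out of the clustering, so their levels were not used to draw the classes. A level below is the gene's UMIs in CPM of all UMIs of a class in 1 pool, and 2 pools per age give n = 2 throughout. No barcode was shared between pools of an age, and 14 were shared between the ages.

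Of the 8 classes with at least 20 cells in every pool, mature DC had the highest mean level of Aldh1a2, Il4i1, Itgb8, Pdcd1lg2, Cd274 and Cd200 at both ages. They held 73.3% of neonatal and 78.6% of adult Aldh1a2 UMIs, 93.0% and 91.7% of Il4i1 UMIs and 92.3% and 92.8% of Itgb8 UMIs, while making up 11.9% of neonatal and 5.61% of adult cells. Tgfb1 had its highest levels among these classes in monocytes, and Ido1 was nearly absent. Levels across classes are given as a description with no test.

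**Figure D1:**
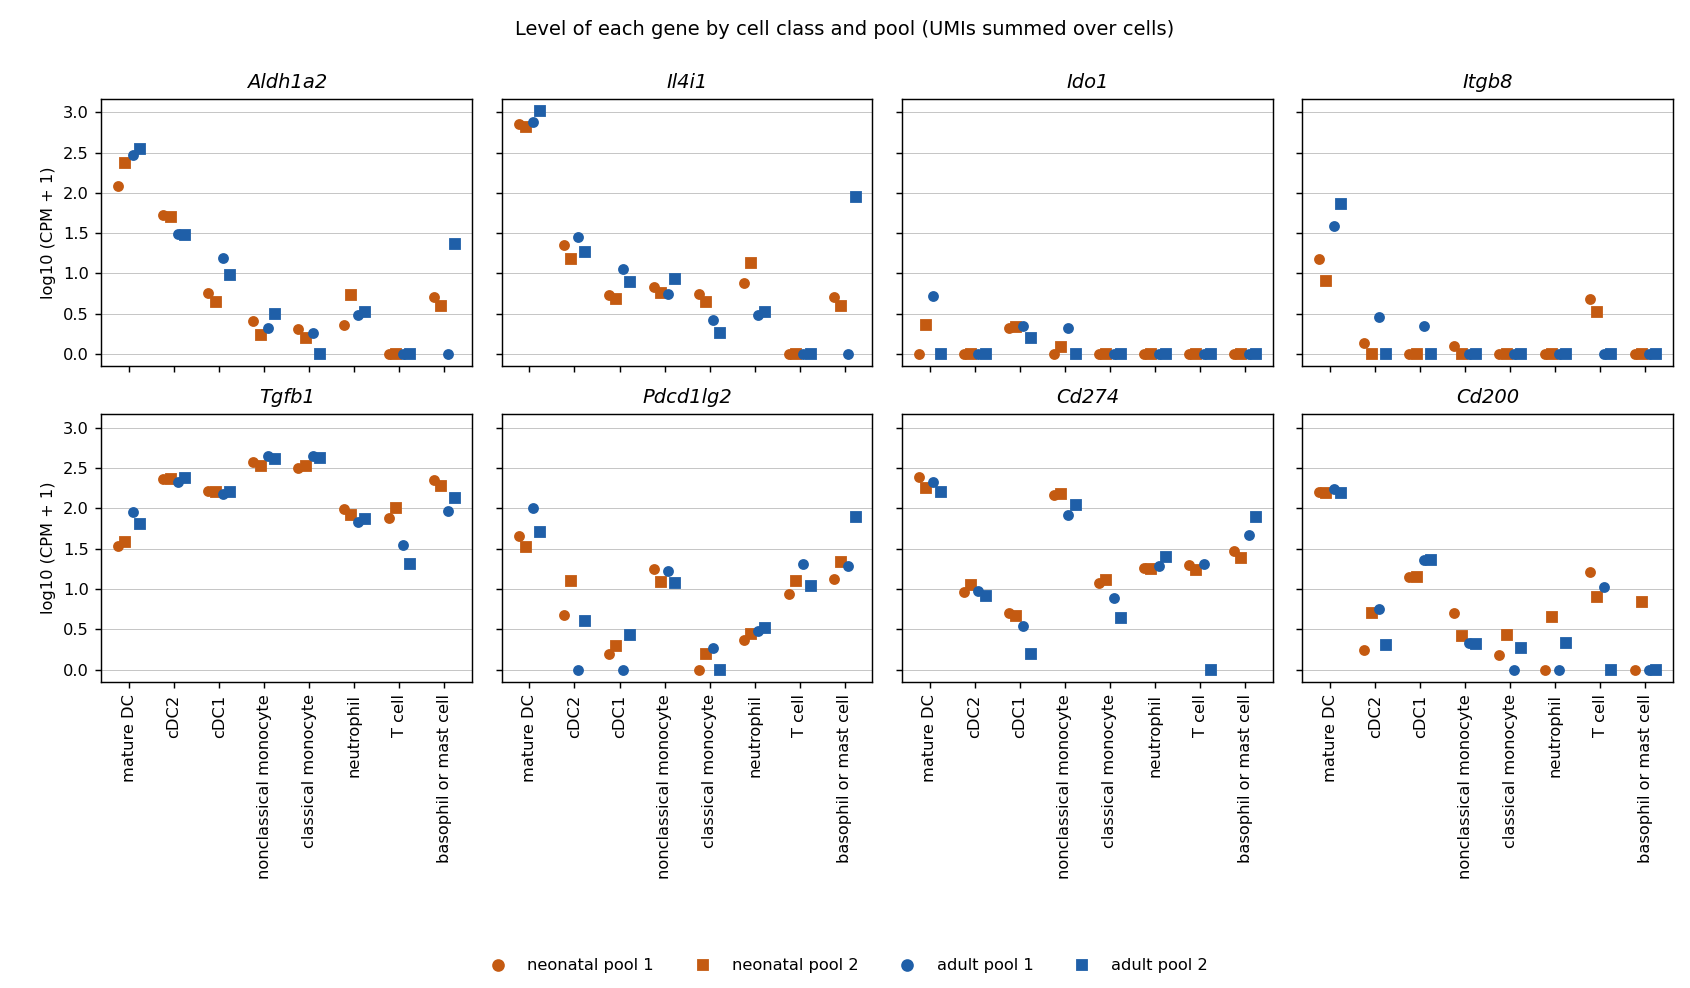
Each panel plots 1 gene; the y axis is log10(CPM + 1) and each point is 1 pool of 1 of the 8 cell classes with at least 20 cells in every pool (orange neonatal, blue adult; circles pool 1, squares pool 2). Il4i1, Aldh1a2 and Itgb8 stand highest in mature DC, whereas Tgfb1 is lower there than in monocytes, cDC1 or cDC2.

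Aldh1a2 differed in level across the dendritic classes. In neonatal cells its level was 176 ± 78.8 CPM (SD, n = 2 pools) in mature DC, 50.2 ± 2.16 in cDC2 and 4.06 ± 0.832 in cDC1. In adult cells the same order held at 320 ± 33.9, 29.6 ± 0.288 and 11.4 ± 4.11 CPM. The pools of these neighbouring classes did not overlap at either age. In the 5 other classes no pool exceeded 4.41 CPM, apart from 22.1 CPM in the basophils or mast cells of adult pool 2, which rests on 2 UMIs.

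Il4i1 reached 684 ± 34.6 CPM in neonatal and 891 ± 206 CPM in adult mature DC. cDC2 followed at 18.0 ± 5.25 and 22.1 ± 6.91 CPM, and cDC1 held 4.16 ± 0.428 and 8.52 ± 2.42 CPM. Neonatal cDC1 thus lay below neonatal neutrophils (9.45 ± 4.11 CPM) and nonclassical monocytes (5.27 ± 0.837 CPM), whose adult levels were 2.16 ± 0.190 and 6.03 ± 2.18 CPM. Basophils or mast cells of adult pool 2 (25 cells) held 88.3 CPM from 8 UMIs, while those of adult pool 1 held none. T cells had no Il4i1 UMI in any pool, which allows up to 4.34 CPM in neonatal and 7.30 CPM in adult cells. Ido1 gave only 24 UMIs in all cells, 16 of them in cDC1 and 6 in mature DC. Its level in cDC1 was 1.11 and 1.16 CPM in the neonatal and 1.23 and 0.568 CPM in the adult pools. It did not pass the filter on low counts in cDC1 and was not tested between the ages in the main fit. In cDC2 no Ido1 UMI was found, which allows up to 0.679 CPM in neonatal and 1.46 CPM in adult cells from a floor of 3 counts per age.

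Among the TGF-beta genes, Itgb8 was a mature DC transcript: 125 of its 135 UMIs came from that class. It had no UMI in neonatal cDC1, which allows up to 0.284 CPM, and 3 in adult cDC1. Its partner chain Itgav was broadly expressed, from 14.0 to 39.2 CPM in mature DC and from 132 to 143 CPM in nonclassical monocytes. Tgfb1 was highest in nonclassical monocytes (352 ± 26.6 CPM neonatal, 427 ± 28.2 adult) and classical monocytes (327 ± 17.2 and 435 ± 12.003), whose pools overlapped at both ages. cDC2 followed at 231 ± 3.96 and 224 ± 16.1 CPM and cDC1 at 160 ± 2.84 and 155 ± 4.26 CPM. Mature DC lay below both, at 35.2 ± 2.49 and 75.7 ± 17.4 CPM. Alveolar macrophages, found only in the neonatal pools (134 cells), held 460 ± 43.2 CPM.

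The PD-1 ligand genes were each highest in mature DC among the 8 classes but differed in the others. Cd274 was at 211 ± 43.3 CPM in neonatal and 186 ± 39.1 CPM in adult mature DC, and next at 147 ± 3.02 and 96.2 ± 20.1 CPM in nonclassical monocytes, which held 48.3% of all neonatal Cd274 UMIs. cDC1 held 3.87 ± 0.302 and 1.51 ± 1.33 CPM of it. Pdcd1lg2 was at 38.2 ± 8.47 and 74.8 ± 34.5 CPM in mature DC. Basophils or mast cells held 16.3 ± 5.90 and 47.7 ± 41.8 CPM of it, the latter from 9 UMIs and overlapping with mature DC, and nonclassical monocytes 13.9 ± 3.74 and 13.3 ± 3.46 CPM. Neonatal innate lymphoid cells (96 cells) held 39.9 ± 13.3 CPM from 18 UMIs, overlapping with neonatal mature DC. Cd200 was at 157 ± 1.56 and 164 ± 12.5 CPM in mature DC and next among the dendritic classes at 13.1 ± 0.200 and 21.8 ± 0.369 CPM in cDC1. Endothelial cells, 55 in the neonatal pools, held more Cd200 than mature DC, 266 ± 1.57 CPM from 72 UMIs. Genes of binding partners, chosen after values were seen, differed in where they were highest. Cd200r1 was at 88.4 to 105 CPM in cDC2 and 121 to 208 CPM in basophils or mast cells. In mature DC it was at most 4.32 CPM. Cd80 was highest in mature DC, at 97.4 to 175 CPM, against at most 71.7 CPM in any other class. Tgfbr1 was at 40.0 to 107 CPM in mature DC and 142 to 203 CPM in nonclassical monocytes. PD-1 itself (Pdcd1) gave 4 UMIs in T cells and 2 in mature DC.

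Between the ages, mature DC differed in 4 of these genes, all lower in neonatal cells: Itgb8, Tgfb1, Pdcd1lg2 and Il4i1. Of 7 members tested there, 4 were lower in neonatal than in adult cells, and none was higher (edgeR quasi-likelihood test, Benjamini-Hochberg over 7692 genes, threshold 0.05). The background is high: 29.5% of all genes tested in mature DC passed, 15.2% as higher in adult and 14.2% as higher in neonatal cells. Counts of members are therefore read against many age differences across the transcriptome. In each comparison 2 pools stand against 2, and p-values set the age difference against the spread between pools. The pools of an age differ by preparation but were loaded together, so that spread leaves out differences between loadings. Cells with Y-linked and no Xist transcripts were 0.340% of neonatal pool 1 and 6.84% of neonatal pool 2. Spread between the neonatal pools can therefore hold a difference of sex as well as of preparation.

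Itgb8 had the largest log2 difference of the members tested in mature DC. Its level was 14.3 and 6.96 CPM in the neonatal and 37.7 and 72.0 CPM in the adult pools. The ages did not overlap, although the adult pools lay farther from each other than the lower adult pool from the higher neonatal one. The fitted log2 difference, neonatal minus adult, was -2.47 ± 0.34 (SE; 5.54-fold higher in adult; edgeR adjusted p = 1.64e-05), from 48 neonatal and 77 adult UMIs. Itgav moved the other way, at 39.2 and 33.5 CPM in neonatal and 14.0 and 21.6 CPM in adult mature DC (log2 difference 0.92 ± 0.30, edgeR adjusted p = 0.0225). That call for Itgav was lost with DESeq2 (adjusted p = 0.290), without neonatal pool 1 (edgeR adjusted p = 0.121) or adult pool 1 (0.229), in thinned cells (0.925) and within cluster 11 of mature DC (-0.08, edgeR adjusted p = 0.978), where most adult mature DC lay.

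Tgfb1 in mature DC was at 33.4 and 37.0 CPM in neonatal and 88.0 and 63.3 CPM in adult pools. Both adult pools were higher, by 2.32-fold in the fit (log2 difference -1.21 ± 0.21, edgeR adjusted p = 9.02e-05). Pdcd1lg2 was at 44.2 and 32.2 against 99.1 and 50.4 CPM, with a log2 difference of -1.09 ± 0.25 (edgeR adjusted p = 0.00281). Adult pool 1 alone was far above the other 3, and without it the difference was -0.52 (edgeR adjusted p = 0.198). DESeq2 gave an adjusted p of 0.0629 for Pdcd1lg2.

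Il4i1 was at 708 and 659 CPM in neonatal and 746 and 1036 CPM in adult mature DC. Adult pool 2 stood above the other 3 pools, which lay close together. The log2 difference was -0.49 ± 0.12 (edgeR adjusted p = 0.00361), and it was -0.23 without adult pool 2 (adjusted p = 0.0972). Cd274, at 242 and 180 CPM against 214 and 158, overlapped between the ages (log2 difference 0.07 ± 0.16, edgeR adjusted p = 0.787). Cd200 was at 158 and 156 against 173 and 155 CPM and overlapped too (-0.18 ± 0.13, edgeR adjusted p = 0.323).

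Aldh1a2 in mature DC was at 120 and 231 CPM in neonatal and 296 and 344 CPM in adult pools. Both adult pools were higher, yet the neonatal pools lay far apart and the test did not pass (log2 difference -0.97 ± 0.45, edgeR adjusted p = 0.261). Without neonatal pool 1 the difference was -0.57, and without neonatal pool 2 it was -1.51. Each of these fits leaves 1 neonatal pool, so the spread between neonatal pools does not enter it. The transcript was spread unevenly over neonatal cells. In neonatal pools 1 and 2, the 27 cells with the most Aldh1a2 UMIs in each held 68.0% and 65.0% of the pool's Aldh1a2 UMIs, and the maximum was 26 and 41 UMIs in a cell. In adult pools 1 and 2 the top 6 cells, the same 5% share of cells, held 30.7% and 37.7%.

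Mature DC of the 2 ages fell into different clusters, and this moved with the members' levels. Cluster 6, led by Fscn1, Ccl5, Ccr7 and Il12b, held 76.5% of neonatal and 7.80% of adult mature DC. Cluster 11, led by Ccl22, Fabp5, Apol7c and Nr4a3, held 20.9% of neonatal and 92.2% of adult mature DC. A small neonatal cluster of 28 cells made up the rest. Aldh1a2 was at 38.8 and 49.3 CPM in the neonatal cells of cluster 6 and at 362 and 674 CPM in those of cluster 11. Aldh1a2 and Il4i1 were among the 10 leading genes of cluster 11, although neither was used to draw it. Neonatal Pdcd1lg2 was at 30.9 and 16.9 CPM in cluster 6 and at 83.5 and 67.8 CPM in cluster 11, and Cd200 had the reverse order, at 178 and 176 against 95.9 and 106 CPM.

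Within cluster 11 alone, 101 and 118 neonatal cells were compared with 104 and 97 adult cells, a fit chosen after seeing how the ages fell into clusters. There 2 of the 7 members tested were lower in neonatal cells, where 6.45% of 5632 genes passed. Itgb8 kept its direction at 30.2 and 15.1 against 38.2 and 59.6 CPM (log2 difference -1.17 ± 0.36, edgeR adjusted p = 0.0452). Cd200 was lower in neonatal cells, at 95.9 and 106 against 180 and 156 CPM (-0.76 ± 0.20, edgeR adjusted p = 0.0121). Il4i1 (-0.03 ± 0.15, adjusted p = 0.968), Pdcd1lg2 (-0.11 ± 0.27, adjusted p = 0.910) and Tgfb1 (-0.52 ± 0.26, adjusted p = 0.293) did not pass in edgeR. Aldh1a2 was at 362 and 674 CPM in neonatal against 319 and 361 CPM in adult cells of cluster 11, so that the difference changed sign (0.59 ± 0.29, edgeR adjusted p = 0.370). Marker levels in mature DC moved with age as well: the summed level of 13 cDC2 markers was 551 and 702 CPM in neonatal and 1835 and 2578 CPM in adult pools, and that of 12 cDC1 markers 1686 and 1457 against 800 and 682 CPM. At each age 1 of the 13 cDC2 markers and none of the 12 cDC1 markers was at 0. Their part in the members' differences was not tested.

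**Figure D2:**
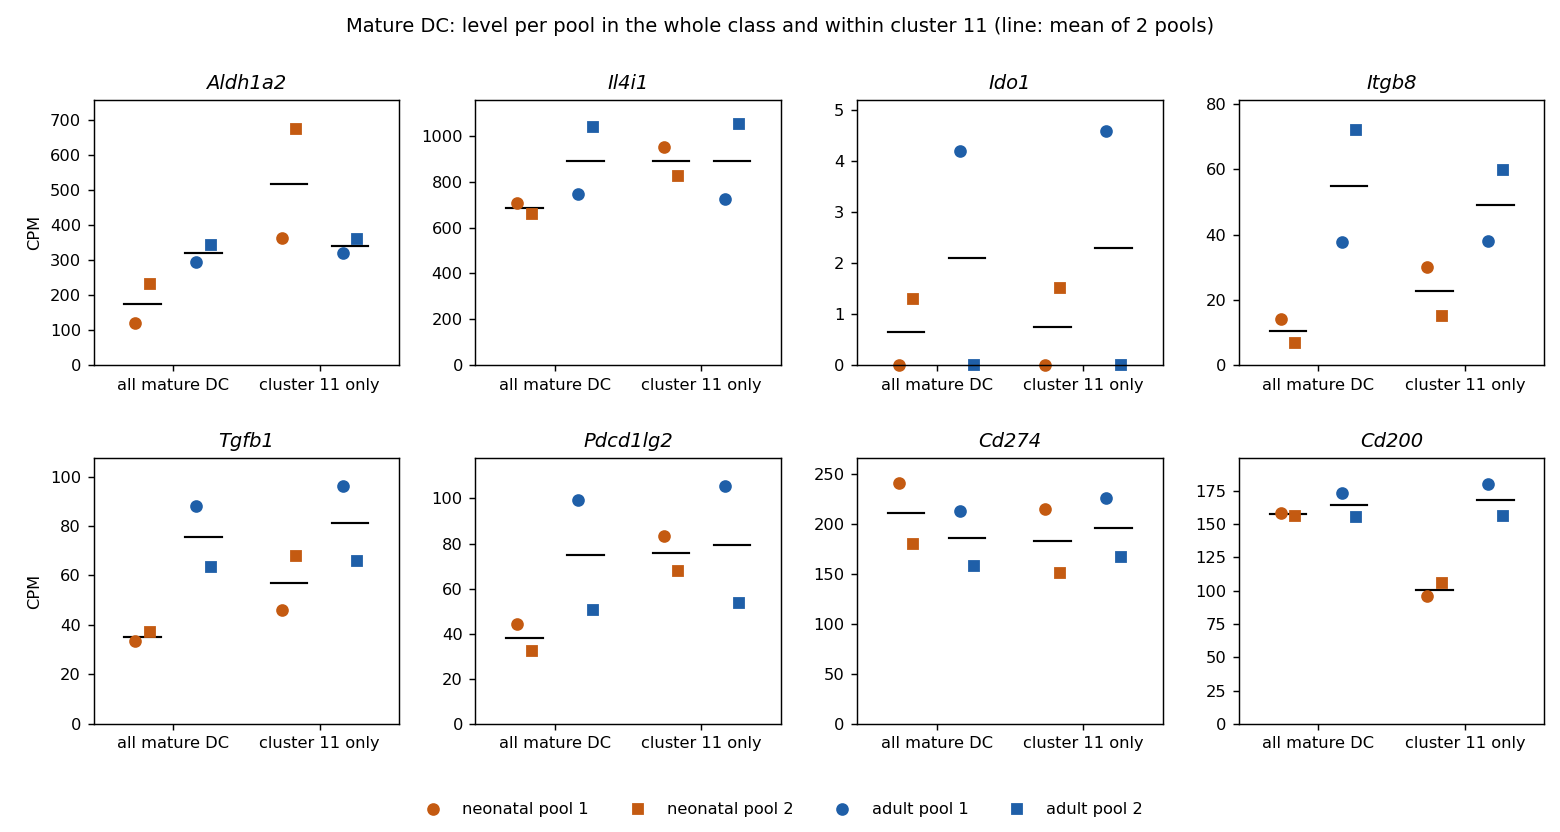
Each panel plots the level of 1 gene (CPM, linear axis from 0) in all mature DC and in cluster 11 only; points are pools (orange neonatal, blue adult) and lines are means of 2 pools. The age gaps of Il4i1, Tgfb1 and Pdcd1lg2 in all mature DC narrow within cluster 11, that of Aldh1a2 changes sign, and that of Cd200 opens.

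In cDC1, 3 of 5 members tested were lower in neonatal cells and none was higher, where 26.5% of all 9944 genes passed, 14.8% as higher in adult and 11.7% as higher in neonatal cells. Aldh1a2 was at 4.65 and 3.47 CPM in neonatal and 14.3 and 8.52 CPM in adult pools (log2 difference -1.60 ± 0.33, edgeR adjusted p = 0.000444). Il4i1 was at 4.46 and 3.85 against 10.2 and 6.81 CPM (-1.13 ± 0.34, edgeR adjusted p = 0.0148). Adult pool 1 was the highest of the 4 pools for both genes. Without that pool, Aldh1a2 gave -1.12 and Il4i1 -0.76, and neither kept its call. Il4i1 lost its call without neonatal pool 2 as well.

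Cd200 was at 13.2 and 12.9 CPM in neonatal and 22.1 and 21.6 CPM in adult cDC1. The pools of an age nearly coincided and the adult level was 1.75-fold higher (log2 difference -0.81 ± 0.20, edgeR adjusted p = 0.00253). Summed marker levels of cDC1 moved with age too: 14 mature DC markers were at 485 and 479 CPM in neonatal and 685 and 620 CPM in adult pools, 13 cDC2 markers at 570 and 556 against 1544 and 1636 CPM, 12 proliferation markers at 491 and 551 against 265 and 195 CPM, and 10 epithelial markers at 67.6 and 57.0 against 275 and 281 CPM. At most 1 marker of each of these lists was at 0 at either age. Their part in the members' differences was not tested. With DESeq2, none of these 3 members passed (adjusted p = 0.0525 for Aldh1a2, 0.349 for Il4i1 and 0.184 for Cd200). Tgfb1 did not differ beyond its error over all cDC1, at 162 and 158 against 152 and 158 CPM (-0.01 ± 0.07, edgeR adjusted p = 0.951), but at a finer clustering it was higher in neonatal cDC1 (0.46, edgeR adjusted p = 2.08e-05). Cd274 was at 4.09 and 3.66 against 2.46 and 0.568 CPM and did not pass (1.15 ± 0.57, edgeR adjusted p = 0.146).

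The cDC1 of each age also lay in different clusters. Cluster 0, led by Xcr1, Itgae, Tlr3 and Clec9a, held 94.7% of neonatal and 21.8% of adult cDC1. The adult cells were mostly in cluster 10 (78.2%, against 5.28% of neonatal cDC1), whose leading genes were Cldn1, Epcam and Plet1. Within cluster 0, Tgfb1 was higher in neonatal cells, at 157 and 158 against 111 and 95.4 CPM (log2 difference 0.51 ± 0.14, edgeR adjusted p = 0.0216), where 7.15% of 9345 genes passed. In cluster 10 it was at 239 and 171 against 162 and 176 CPM and did not pass (0.28 ± 0.16, edgeR adjusted p = 0.348). In cluster 10 Cd274 passed, at 18.9 and 38.1 CPM in neonatal against 3.08 and 0.728 CPM in adult cells (3.61 ± 0.69, edgeR adjusted p = 0.00168), from 16 and 7 UMIs, where 9.83% of 6857 genes passed. Aldh1a2 in cluster 0 was at 4.74 and 3.45 against 24.3 and 0 CPM, and its 12 adult UMIs all came from adult pool 1 (-1.80 ± 0.70, edgeR adjusted p = 0.142). Cd200 lost its call in both clusters. It was at 12.6 and 12.99 against 34.4 and 12.9 CPM in cluster 0 (-1.04 ± 0.38, edgeR adjusted p = 0.104) and at 22.1 and 11.4 against 19.0 and 24.0 CPM in cluster 10 (-0.32 ± 0.47, edgeR adjusted p = 0.760), and the ages overlapped in each.

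In cDC2, 1 of 4 members tested passed, against 17.4% of 8597 genes (7.11% as higher in neonatal and 10.3% as higher in adult cells), and it was Aldh1a2, with the opposite sign to cDC1. Aldh1a2 was at 51.7 and 48.7 CPM in neonatal and 29.8 and 29.4 CPM in adult cDC2. The pools of an age nearly coincided, and neonatal cells were 1.53-fold higher (log2 difference 0.61 ± 0.21, edgeR adjusted p = 0.0335). Leaving out any 1 pool ended the call in edgeR, with adjusted p between 0.0936 and 0.253, and DESeq2 gave 0.701. Il4i1 (21.7 and 14.3 against 27.0 and 17.2 CPM), Tgfb1 (233 and 228 against 212 and 235 CPM) and Cd274 (8.24 and 10.3 against 8.38 and 7.09 CPM) overlapped between the ages and did not pass, with edgeR adjusted p of 0.396, 0.525 and 0.947. Pdcd1lg2 was at 3.75 and 11.5 CPM in neonatal and 0 and 3.04 CPM in adult cDC2, and did not pass the main filter on low counts. Its 30 neonatal and 3 adult UMIs gave a ratio of 4.67 (95% exact interval 1.45 to 23.9, counting error only), but neonatal pool 1 and adult pool 2, which held all the adult UMIs, lay close together.

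Markers of other cells were found in the cDC2 class. The summed level of 10 C1q macrophage markers was 716 and 1299 CPM in neonatal and 738 and 2067 CPM in adult pools, with no order by age. That of 12 proliferation markers was 1308 and 976 against 277 and 380 CPM, that of 12 cDC1 markers 1581 and 1540 against 936 and 894 CPM, and that of 10 plasmacytoid DC markers 168 and 206 against 661 and 275 CPM. Only 2 plasmacytoid DC markers, in neonatal cells, were at 0 in these lists. Their part in the age difference of Aldh1a2 was not tested. At a finer clustering the cDC2 class held 341 and 208 neonatal and 91 and 76 adult cells, against 400, 266, 154 and 129 before. A C1q macrophage class appeared there (66 and 61 neonatal, 24 and 27 adult cells), as did plasmacytoid DC (38, 30, 51 and 33) and an unnamed class (6, 2, 61 and 63), and which of these classes the cells that left cDC2 entered was not followed. Aldh1a2 was then at 52.4 and 49.6 against 20.4 and 18.3 CPM in cDC2, and at 38.6 and 40.6 against 128 and 79.4 CPM in the C1q macrophages, so the age order was opposite in these 2 groups of cells. Tgfb1 was higher in the C1q macrophages, at 454 and 393 against 297 and 222 CPM, than in cDC2 of that clustering, at 213 and 224 against 183 and 208 CPM. At that setting the log2 difference of Aldh1a2 in cDC2 was 1.21 ± 0.28 (edgeR adjusted p = 0.000634).

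**Figure D3:**
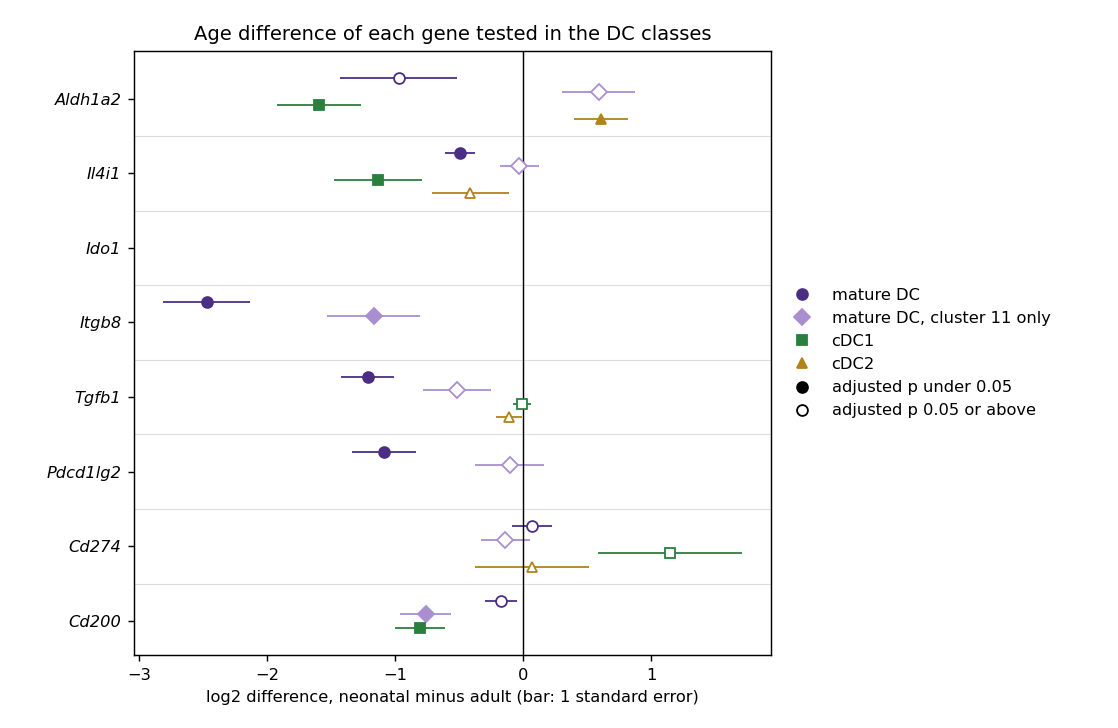
The x axis is the fitted log2 difference, neonatal minus adult, with bars of 1 standard error, for each member tested in mature DC, cluster 11 of mature DC, cDC1 and cDC2; filled symbols passed the threshold of 0.05 after adjustment. Aldh1a2 is negative in cDC1 and positive in cDC2, and Itgb8 is the most negative; Ido1 was tested in none.

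Among the other classes, Tgfb1 differed between the ages in 3. It was lower in neonatal than adult classical monocytes (314 and 339 against 443 and 426 CPM; log2 difference -0.60 ± 0.08, edgeR adjusted p = 9.09e-09; 16.1% of genes passed there). The same direction held in nonclassical monocytes (371 and 333 against 447 and 407 CPM; -0.39 ± 0.08, edgeR adjusted p = 0.000194; 18.1% passed). In T cells it was higher in neonatal pools (75.8 and 101 against 33.7 and 19.6 CPM; 1.55 ± 0.43, edgeR adjusted p = 0.0252; 7.15% passed), from 63 and 11 UMIs. That class mixed cells: its cluster had NK cell markers as the next list, and at the finer clustering it held 38 and 54 neonatal and 39 and 47 adult cells instead of 75, 106, 51 and 52, beside a class of proliferating NK cells (39, 57, 22 and 18). The Tgfb1 call in T cells was lost there (1.32, edgeR adjusted p = 0.144), with the members among the clustering genes (1.36, edgeR adjusted p = 0.139), and without neonatal pool 2 (1.29, edgeR adjusted p = 0.399) or adult pool 2 (edgeR adjusted p = 0.213). In basophils or mast cells (227 and 187 against 90.8 and 132 CPM; edgeR adjusted p = 0.138; 7.24% passed) and neutrophils (96.8 and 81.2 against 67.7 and 72.1 CPM; edgeR adjusted p = 0.123; 32.2% passed) it did not pass. Cd274 was higher in neonatal nonclassical monocytes (145 and 149 against 82.0 and 110 CPM; 0.50 ± 0.12, edgeR adjusted p = 0.00247), which did not pass without adult pool 1 (0.31, edgeR adjusted p = 0.169) or with DESeq2 (adjusted p = 0.145). Monocytes of the 2 ages also lay in different clusters. Of classical monocytes, cluster 5 held 437 and 375 neonatal and 12 and 22 adult cells, and cluster 12 held 9 and 15 against 188 and 168. Of nonclassical monocytes, clusters 1 and 2 each held 694 to 793 neonatal and 5 to 15 adult cells of a pool, and cluster 8 held 12 and 19 against 270 and 288. Its part in the age differences of monocytes was not tested.

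Age differences were then compared between dendritic classes directly, by the class-by-age interaction with the pool as a block. Tgfb1 differed in its age difference between mature DC and cDC1 (log2 difference of differences -1.11 ± 0.22, edgeR adjusted p = 6.14e-05) and between mature DC and cDC2 (-1.02 ± 0.23, edgeR adjusted p = 0.000227). The second lost its call without adult pool 1 (-0.76, edgeR adjusted p = 0.0647). In all genes, 18.3% and 15.5% passed these interactions. Aldh1a2 differed between cDC1 and cDC2 (-2.18 ± 0.38, edgeR adjusted p = 4.67e-06; 7.26% of genes passed) and between mature DC and cDC2 (-1.58 ± 0.24, edgeR adjusted p = 6.32e-09). The cDC1 and cDC2 difference lost its call without adult pool 1 (-1.72, edgeR adjusted p = 0.0672), and that of mature DC and cDC2 without the pool block (-1.50, edgeR adjusted p = 0.236). Cd200 differed between mature DC and cDC1 (0.72 ± 0.24, edgeR adjusted p = 0.0275), and leaving out any 1 pool ended that call. Pdcd1lg2 differed between mature DC and cDC2 (-3.02 ± 0.72, edgeR adjusted p = 0.000603), which rests on 3 adult cDC2 UMIs, and its call was lost without neonatal pool 2 or adult pool 1 (edgeR adjusted p = 0.198 and 0.285).

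The share of cells carrying a transcript was compared after thinning every cell to 1000 UMIs, since depth differed between pools. Aldh1a2 was found in 8.16% and 10.5% of neonatal and 23.9% and 21.0% of adult mature DC (18.2% and 28.1% against 59.3% and 61.0% unthinned, median depth 4393.5 UMIs). Il4i1 was found in 42.7% and 39.2% against 52.2% and 51.4%, Tgfb1 in 3.04% and 2.68% against 13.3% and 7.62%, and Pdcd1lg2 in 3.04% and 2.29% against 9.73% and 4.76%. For these 4 genes and for Itgb8 (0.949% and 0.765% against 2.65% and 3.81%) every adult pool exceeded every neonatal pool. How often other genes separated in this way was not counted, so nothing is read from the number of members that did. Cd200 had the reverse order, 15.2% and 15.1% against 12.4% and 12.4%, although unthinned shares and CPM overlapped, so no order is read from it. Cd274 overlapped. With 2 pools per age the exact permutation test, two-sided, cannot go below p = 0.333, so these separations were described and not called.

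In nonclassical monocytes thinned to the same depth, Aldh1a2 was found in 0.0664% to 0.345% and Il4i1 in 0.266% to 0.785% of cells of a pool, at an unthinned median of 2669 UMIs. Mature DC of every pool were above these shares. In cDC1 (unthinned median 6988 UMIs) the thinned shares were 0.134% to 1.58% for Aldh1a2 and 0% to 1.07% for Il4i1, which overlapped with those of nonclassical monocytes.

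**Figure D4:**
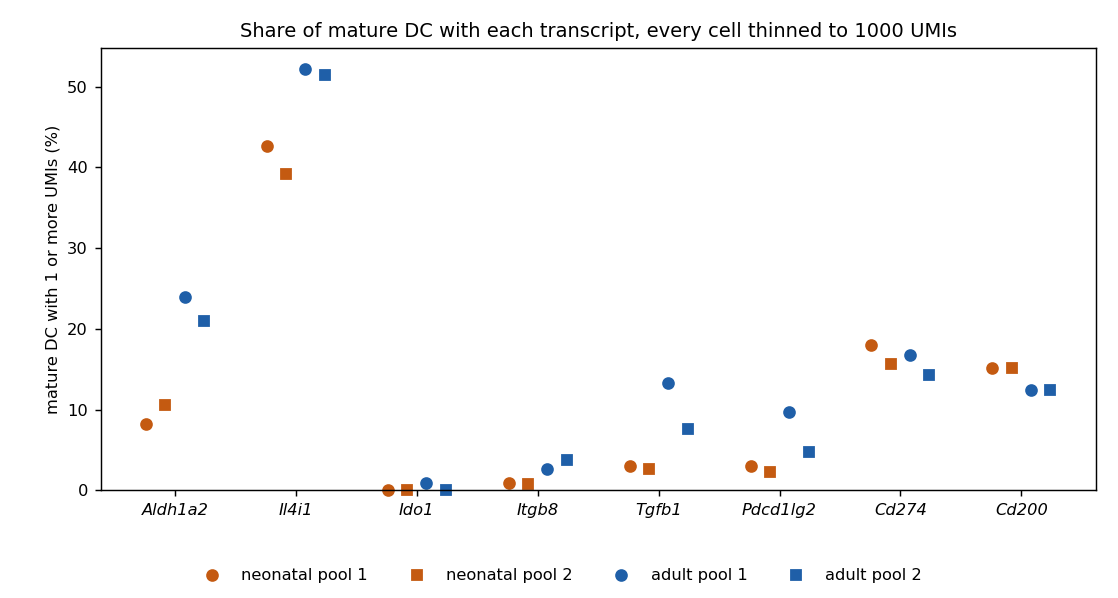
The y axis is the percentage of mature DC with at least 1 UMI of each gene after thinning every cell to 1000 UMIs; points are pools (orange neonatal, blue adult). Adult pools lie above neonatal pools for Aldh1a2, Il4i1, Itgb8, Tgfb1 and Pdcd1lg2, below them for Cd200, and among them for Cd274.

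Aldh1a2 and Il4i1 were found together in about as many cells as their separate shares would give. In thinned neonatal mature DC, 98 of 1050 cells carried Aldh1a2 and 430 carried Il4i1, and 43 carried both against 40.1 if the genes were independent. In adult mature DC 28 of 218 cells carried both against 25.4. Il4i1 and Cd274 met in 61 neonatal cells against 72.5 and in 13 adult cells against 17.6. None of the 8 transcripts was found in 32.6% and 37.5% of neonatal and 15.04% and 26.7% of adult mature DC, while 3 or more members were found in 4.17% and 3.25% against 11.5% and 7.62%. In cDC1 of each pool, 78.2% to 84.3% of thinned cells carried none. Sharing of cells is given as a description with no test.

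The other genes of the same pathways were followed in lists chosen by function, with earlier results of these data known. The shares of these lists that were called are therefore descriptions. Among 29 retinoid genes besides Aldh1a2, 11 were tested in mature DC and 4 (36.4%, against 29.5% of all genes) were higher in adult cells, none in neonatal. They included the retinal-reducing enzyme Dhrs3 (20.5 and 25.7 CPM in neonatal against 51.7 and 57.6 CPM in adult pools; log2 difference -1.35 ± 0.24, edgeR adjusted p = 0.000134). In cDC1 2 retinoid genes of 16 tested were higher in neonatal and 3 in adult cells (31.2% called, against 26.5% of all genes), and in cDC2 2 and 1 of 14 (21.4%, against 17.4%). These shares lie near the background. Rarb, a retinoic acid receptor gene that is itself induced by retinoic acid, was at 3.16 and 2.89 CPM in neonatal and 22.5 and 30.7 CPM in adult cDC1 (-3.15 ± 0.26, edgeR adjusted p = 3.41e-10). It was also higher in adult cDC2, at 16.8 and 20.3 against 4.87 and 4.58 CPM (-2.10 ± 0.40, edgeR adjusted p = 5.49e-05), where Aldh1a2 had the opposite direction. Fabp5, which encodes a fatty acid and retinoic acid carrier, was higher in neonatal cDC1, at 32.9 and 26.6 against 5.32 and 5.11 CPM. Within cluster 11 none of 8 retinoid genes tested passed in edgeR (2 had an unadjusted p under 0.05), where 6.45% of all genes passed. Within cluster 0, 1 of 15 passed in each direction, where 7.15% of all genes passed.

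Among 27 genes of amino acid catabolism and sensing, 14 were tested in mature DC, with 1 higher in neonatal and 3 in adult cells (28.6% called, against 29.5% of all genes, so no result about the list). The cystine transporter gene Slc7a11 was at 61.1 and 64.4 against 214 and 137 CPM (log2 difference -1.59 ± 0.17, edgeR adjusted p = 3.24e-07) and the large neutral amino acid transporter gene Slc7a5 at 6.69 and 6.96 against 72.6 and 21.6 CPM (-2.89 ± 0.46). Tiparp, a target of the aryl hydrocarbon receptor, was higher in neonatal mature DC, at 29.0 and 26.1 against 12.6 and 15.8 CPM (0.84 ± 0.32, edgeR adjusted p = 0.0497), but that call was lost in 9 of 13 alternatives, including DESeq2 (adjusted p = 0.442) and each fit without 1 pool (edgeR adjusted p = 0.0750 to 0.280). In cDC1 1 of 16 tested was higher in neonatal and 8 in adult cells (56.2% called, against 26.5% of all genes). Those higher in adult cells included the receptor gene Ahr (125 and 108 against 178 and 196 CPM). The difference of Ahr kept its sign in cluster 0 (-0.90) and changed it in cluster 10 (0.83, edgeR adjusted p = 0.000371). Slc7a5, Slc3a2, Ddit3, Atf4 and Kmo lost their cDC1 calls in both clusters, Haao and Kyat3 in cluster 0 and Tiparp in cluster 10. In cDC2 the counts were 1 and 5 of 16 (37.5% called, against 17.4% of all genes). Arg1, which encodes arginase 1, had 103 neonatal and 0 adult UMIs in cDC2, at least 16.0-fold higher in neonatal cells from a floor of 3 counts over the adult pools.

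The TGF-beta list of 30 further genes had 16 tested in mature DC, with 3 higher in neonatal and 7 in adult cells (62.5% called, against 29.5% of all genes). The list's median log2 difference was -0.58, against -0.0047 for all genes tested, but it was 0.05 without adult pool 2 and 0.06 with no filter on low counts, so no direction is read from it. The receptor gene Tgfbr1 was at 42.4 and 40.0 against 97.7 and 107 CPM (-1.42 ± 0.17, edgeR adjusted p = 1.41e-06). The inhibitory feedback genes Smad7 (16.9 and 13.9 against 44.7 and 41.7 CPM) and Skil (126 and 134 against 196 and 183 CPM) were higher in adult cells too. Smad3, a signal transducer, was higher in neonatal cells, at 13.8 and 15.7 against 2.79 and 4.32 CPM, a call lost with DESeq2 (adjusted p = 0.218) and without neonatal pool 1 (edgeR adjusted p = 0.125) or adult pool 1 (0.0846). So was Thbs1, whose product can activate latent TGF-beta, with 76 neonatal and 0 adult UMIs (at least 7.87-fold). In cDC1 12 of 17 tested were higher in adult and 2 in neonatal cells (82.4% called, against 26.5% of all genes). Tgfbr1 was at 21.0 and 22.9 against 88.4 and 124 CPM there, a call lost within both cluster 0 and cluster 10. In cDC2 5 of 17 were higher in adult cells and none in neonatal (29.4% called, against 17.4% of all genes). Within clusters, none of 10 genes of this list passed in cluster 11 (4 had an unadjusted p under 0.05 in edgeR), 1 of 17 in cluster 0 and 4 of 16 in cluster 10. Of all genes, 6.45%, 7.15% and 9.83% passed in these clusters, in that order.

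The inhibitory ligands and receptors besides the 3 members on that list numbered 29. In mature DC 16 were tested, with 1 higher in neonatal and 5 in adult cells (37.5% called, against 29.5% of all genes). Pvr, which encodes the ligand of TIGIT and CD226, was higher in neonatal cells, at 168 and 147 against 69.8 and 54.7 CPM (log2 difference 1.22 ± 0.17, edgeR adjusted p = 5.93e-06). Fgl2 (66.9 and 65.2 against 136 and 154 CPM), Siglecg and Cd72 were higher in adult cells. Cd72, which encodes an inhibitory receptor, was higher in adult cells of all 3 dendritic classes: 1.34 and 0.870 against 15.4 and 21.6 CPM in mature DC, 1.30 and 0.578 against 15.1 and 15.3 CPM in cDC1, and 7.87 and 10.3 against 76.4 and 79.1 CPM in cDC2. In cDC1 2 of 18 tested genes were higher in neonatal and 11 in adult cells (72.2% called, against 26.5% of all genes), and in cDC2 1 and 9 of 18 (55.6%, against 17.4%). Within cDC1, Btla, Havcr2, Lilrb4a and Pvr lost their calls in both cluster 0 and cluster 10. Cd47, Cd80 and Cd300a lost theirs in cluster 10 and Sirpa in cluster 0. Cd72 and Fgl2 kept theirs in every alternative tested.

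Of 26 other soluble and intracellular regulators, 20 were tested in mature DC and 6 passed in each direction (60.0% called, against 29.5% of all genes). Ebi3, a subunit of interleukin-27 and interleukin-35, was higher in neonatal cells, at 80.7 and 66.5 against 33.5 and 24.5 CPM (log2 difference 1.23 ± 0.23, edgeR adjusted p = 0.000276), and the NF-kB inhibitor gene Nfkbia in adult cells, at 983 and 891 against 1560 and 1461 CPM. Lgals1, the galectin-1 gene, was higher in neonatal cDC1 (641 and 645 against 170 and 186 CPM) and cDC2 (1245 and 1193 against 475 and 478 CPM), and Lgals3 in adult cDC1 (576 and 542 against 1247 and 1190 CPM). Of 25 transcription factor genes known to act on the members, 23 were tested in mature DC. There 4 were higher in neonatal and 10 in adult cells (60.9% called, against 29.5% of all genes). Irf1 was at 665 and 652 against 147 and 124 CPM (2.17 ± 0.12, edgeR adjusted p = 8.62e-12) and Irf8 at 1164 and 950 against 316 and 248 CPM. Nr4a3 (206 and 187 against 588 and 561 CPM) and Nfkb1 (236 and 215 against 485 and 389 CPM) were higher in adult mature DC. In cluster 11, where 6.45% of all genes passed, the transcription factor list had 8 calls among 22 tested, 1 higher in neonatal and 7 in adult cells. Of the list genes named above for mature DC, Cd72, Fgl2, Nfkbia and Nfkb1 kept their calls in cluster 11. Dhrs3, Slc7a5, Tgfbr1, Smad7, Skil, Siglecg, Ebi3 and Nr4a3 kept their sign without passing there in edgeR. Irf1 (-0.28), Pvr (-0.11) and Slc7a11 (0.04) changed sign without passing, and Irf8 passed in the opposite direction (-0.58 ± 0.18, edgeR adjusted p = 0.0423).

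The genes whose levels ran most like each member were ranked by Pearson correlation of log2(CPM + 1) over 32 sums (8 classes in 4 pools), as a description. The sums of a pool share their library and those of a class share their cell type. Aldh1a2 and Il4i1 were each other's closest match among 9717 genes ranked (r = 0.936), followed for Aldh1a2 by Adam23 (0.931) and Etv3 (0.926) and for Il4i1 by Rel (0.909) and Mreg (0.906). Itgb8 ran with Plek2 (0.927), Sphk1 (0.910) and Ikzf4 (0.902), and Cd200 with Sema6d (0.922), Slc22a23 (0.902) and Sri (0.876). For Cd274 the closest were Samsn1 (0.851), Taok1 (0.842) and N4bp2l1 (0.833), and for Pdcd1lg2 Clec2d (0.811), Mdm4 (0.799) and Zfand6 (0.775). Tgfb1 ran with Atf6 (0.888), Naip5 (0.873) and Ccdc12 (0.865).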

How the data were processed

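Droplet 3' single-cell RNA-seq of sorted lung cells was deposited as UMI counts per gene and cell, made by the authors with Cell Ranger 6.1.2 (genome build mm10) per the submitters' processing notes, which also name Seurat 4.2.0. These deposited counts were not normalized. Hashtag counts were deposited with them, and the barcode suffix gave the pool. Cells needed 500 or more genes, a depth of 1000 UMIs or more and no more than 10% of UMIs from mitochondrial genes. Predicted doublets (Scrublet; 101, 87, 21 and 14 in the 4 pools) were left out, as was any barcode whose second hashtag made up more than 20% of its hashtag counts. Cells were clustered with scanpy 1.11.5 on 2967 genes without the 8 members (30 principal components, 15 neighbours, Leiden resolution 1), and the 24 clusters were named from marker lists, so the class names are rebuilt.

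Counts of each class were added up within a pool and tested with edgeR 4.0.16 (R 4.3.3; TMM scaling, filterByExpr, quasi-likelihood, Benjamini-Hochberg over all genes of a class, threshold 0.05). A class was tested where every pool held at least 20 of its cells. With 2 pools per age, p-values set the age difference against the spread between pools, which edgeR estimates with information shared over genes. Depth was 20346024 and 19549992 gene UMIs in the neonatal and 8993471 and 8172362 in the adult pools, and intervals and floors of 3 counts cover counting error only. DESeq2 1.42.0, other filters, thinning, other clusterings and leaving out each pool were alternatives. A fit without 1 pool leaves 1 pool in that age, so its p-values rest on the spread within the other age. The fits within 1 cluster were chosen after seeing the data. Named genes were all members and, for each list and dendritic class, up to 3 called genes in each direction by smallest p that reached 10 CPM in 1 of the ages, and the 3 most correlated genes of each member with at least 50 UMIs. The members and lists were chosen with earlier results of these data known. Code was tested on simulated data.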

Additional observations from a re-analysis of the deposited data

Results flagged for a closer look

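The age difference (log2, neonatal minus adult) differed between dendritic classes by a test of the difference itself for 4 of the 7 members tested (edgeR quasi-likelihood interaction, Benjamini-Hochberg adjusted). Over all genes, 18.3% passed between mature DC and cDC1, 15.5% between mature DC and cDC2 and 7.26% between cDC1 and cDC2. The share of genes that passed in any of these pairs was not counted, so nothing is read from the number of members. For Tgfb1 the age difference was lower in mature DC than in cDC1 by -1.11 (edgeR adjusted p = 6.14e-05) and than in cDC2 by -1.02 (edgeR adjusted p = 0.000227). For Aldh1a2 it was lower in mature DC than in cDC2 by -1.58 (adjusted p = 6.32e-09) and lower in cDC1 than in cDC2 by -2.18 (adjusted p = 4.67e-06). Cd200 gave 0.72 between mature DC and cDC1 (adjusted p = 0.0275). Pdcd1lg2 gave -3.02 between mature DC and cDC2 (adjusted p = 0.000603), from 3 adult UMIs in cDC2. The share of clusters within mature DC and within cDC1 differed between the ages, and its part in these differences was not tested. Apart from that of Tgfb1 between mature DC and cDC1, each of these calls was lost when 1 pool was left out, in thinned cells or without the pool block.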

How the results depend on the processing

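Values are log2 age differences, neonatal minus adult. Of 279 values of single members under an alternative, 233 kept direction and side of the threshold, 27 lost the call, 6 gained it and 13 changed sign. With DESeq2 the calls of Aldh1a2 (-1.556), Il4i1 (-1.097) and Cd200 (-0.7886) in cDC1, Aldh1a2 in cDC2 (0.6216) and Pdcd1lg2 in mature DC (-1.03) were lost. At Leiden resolution 2 Il4i1 in cDC1 gave -0.7292 and lost its call. Leaving out 1 pool at a time gave in cDC1 -1.876 to -1.117 for Aldh1a2, -1.359 to -0.7627 for Il4i1 and -0.03409 to 0.01078 for Tgfb1 (0.007816 without neonatal pool 2), and in cDC2 0.5664 to 0.6577 for Aldh1a2 and -0.03422 to 0.2575 for Cd274. In mature DC it gave -0.7144 to -0.2288 for Il4i1, -1.481 to -0.5161 for Pdcd1lg2 and -0.1415 to 0.2993 for Cd274 (-0.1221 without adult pool 2). Tgfb1 in cDC1 changed sign with DESeq2 (0.00601), with no filter (0.02009), at 5% mitochondrial UMIs (0.004421), at resolution 2 (0.4622) and within clusters 0 (0.5074) and 10 (0.275). Within cluster 0, Aldh1a2 gave -1.801 and Cd200 -1.044, and within cluster 10 Cd200 gave -0.3249. Within cluster 11 of mature DC, values were 0.5873 for Aldh1a2, -0.0308 for Il4i1, -0.5165 for Tgfb1, -0.1056 for Pdcd1lg2 and -0.14 for Cd274. Members called in cDC1 numbered 3, against 0 with DESeq2 and fewer in some fits with 1 pool left out. In cDC2 the count was 1, against 0 with DESeq2, and the call was lost with 1 pool left out. In mature DC it was 4, against 2 within cluster 11, where fewer cells and genes were tested. Those 2 were Itgb8, among the 4, and Cd200, not among them. None of the 3 calls in cDC1 was seen within cluster 0 or 10, where Il4i1 was not tested, nor Aldh1a2 in cluster 10. The 1 call within each was another member, higher in neonatal cells: Tgfb1 in cluster 0 and Cd274 in cluster 10. Of all genes, 7.15%, 9.83% and 6.45% passed within clusters 0, 10 and 11. None of the members called in cDC1 or cDC2 passed the filter on low counts in thinned cells of that class. The 0 calls there were therefore fixed in advance, and the effect of thinning on these calls was not tested. Differences between classes lost their call in thinned cells for Aldh1a2, cDC1 minus cDC2 (-2.307), Cd200, mature DC minus cDC1 (0.3555), and Pdcd1lg2, mature DC minus cDC2 (-2.123). Without the pool block the mature DC minus cDC2 differences of Aldh1a2 (-1.497) and Pdcd1lg2 (-3.024) lost theirs. With 1 pool left out these differences ran from -2.475 to -1.72 for Aldh1a2, cDC1 minus cDC2, from -2.074 to -1.057 for Aldh1a2, mature DC minus cDC2, from 0.6321 to 0.7308 for Cd200, mature DC minus cDC1, from -7.814 to -1.498 for Pdcd1lg2, mature DC minus cDC2, from -1.384 to -0.878 for Tgfb1, mature DC minus cDC1, and from -1.281 to -0.7627 for Tgfb1, mature DC minus cDC2. The cause of these changes was not tested. The replicate numbers did not pair the pools (correlation of deviations -0.0164, 0.0128 and 0.0446 in cDC1, cDC2 and mature DC). With the replicate block 3, 1 and 5 members were called in cDC1, cDC2 and mature DC, the added call being Aldh1a2 in mature DC (-1.017, edgeR adjusted p = 3.04e-07). That block joins pools by a number that did not pair them. The share of all genes called with it was not counted, so nothing is read from these counts or the added call. Counts of called genes in the other lists moved by over 1.5 times in 66 of 270 cases. Depth limits Ido1, with 24 UMIs in all, and Itgb8 outside mature DC.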

Other observations

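Neonatal pool 2 held 33 mature DC with Y-linked and no Xist transcripts, which allow a look at cells of the sex seen in the adult pools, with no test. All adult cells were taken, though only 45.7% and 48.5% of cells of adult pools 1 and 2 had Y-linked transcripts alone. Needing a Y-linked UMI favours deeper cells, and cluster 11 was deeper than cluster 6 (median 5863.5 against 3994.5 UMIs). The clusters of the 33 cells were not counted. In these cells Aldh1a2 was at 404 CPM (95% exact Poisson interval 310 to 517, counting error only), against 231 CPM in all mature DC of that pool and 296 and 344 CPM in the adult pools. Il4i1 was at 583 CPM (470 to 716), against 746 and 1036 CPM in adult pools. Itgb8, which prepares latent TGF-beta for release, was at 19.2 CPM (3.97 to 56.2), against 37.7 and 72.0 CPM. Tgfb1 was at 25.6 CPM (6.98 to 65.6), against 88.0 and 63.3 CPM. Pdcd1lg2 was at 0 CPM (0 to 23.6), against 99.1 and 50.4 CPM. In the 24 such cDC2, Aldh1a2 was at 48.1 CPM (20.8 to 94.7).

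In the C1q macrophage class of the finer clustering, Cd274 was at 56.4 and 67.7 CPM in neonatal and 8.01 and 0 CPM in adult pools, the adult values resting on 1 UMI in all. The 51 adult cells are too few for more than these values.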
